A study of Mus musculus with 13 samples.

Results

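CD8 lineage single-positive thymocytes were picked from 8 mouse thymic lobes by the counts of a few genes in each cell. A cell was a member if it held at least 2 UMIs (unique molecular identifiers, each standing for 1 captured RNA molecule) of Runx3, Itgae and Nkg7 together and at least 1 UMI of Cd8a and Cd8b1 together. It also had to hold no UMI of Zbtb7b, Cd40lg, Il2ra or Flt3, and at most 1 UMI of Rag1 and Rag2 together and at most 1 of Zbtb16. The rule found 745 members among 58756 cells of 500 to 25000 UMIs, which is 1.27% (exact 95% interval 1.18 to 1.36%, counting error only). The measured levels of these genes therefore chose the members, and they are given below as a description only.

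In the thymus, immature T cells pass through a double-positive (DP) stage at which they carry both coreceptors, CD4 and CD8, and still rearrange their antigen receptor genes. Cells whose receptor recognises MHC class I keep CD8 under the control of the transcription factor Runx3, while cells selected on MHC class II keep CD4 under Zbtb7b, also called ThPOK. Newly selected CD8 cells move to the medulla with the chemokine receptor CCR7, regain the interleukin-7 receptor, raise their own surface MHC class I, and leave through the sphingosine-1-phosphate receptor S1PR1. Itgae encodes the CD103 integrin chain, which thymic CD8 cells carry, and Nkg7 encodes a protein of cytotoxic granules.

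The lobes came from female C57BL/6N mice aged 2 months, and no treatment is described for them. They were fixed, barcoded by split-pool wells and counted with 2 kits of Parse Biosciences. The whole transcriptome (WT) kit held 4 lobes of 2 mice beside 16 samples that are not analysed further here, and the smaller Mini kit, run as a later experiment, held 4 lobes of 2 mice. The tables name lobes but not mice, so a gene was called only if it passed under each of the 9 ways of pairing lobes into mice. The p-values measure the spread between these lobes and mice only. The lobes held 28057164 to 124106974 UMIs in all and between 3974 and 14200 cells within the UMI limits, with no cell barcode shared between the kits.

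Each lobe gave between 35 and 208 members. The share was 2.14, 0.942, 1.36 and 1.46% in WT 1 to WT 4, and 0.666, 1.70, 1.07 and 1.05% in Mini 1-A, 1-B, 2-A and 2-B. Over single first-round wells it ran from 0.552 to 2.17%, and the lobe mean was 1.30% ± 0.468 (SD, n = 8 lobes). The rule needs at least 3 UMIs of named genes, and members were deeper than the rest, with a median of 4129 UMIs per cell against 3060. When each cell was thinned to 1000 UMIs before the rule was applied, the lobe mean was 0.443%. The share of ribosomal RNA was lower in members than in the other cells of the same lobe in 8 of 8 lobes, with 11.1 to 25.7% in members and 12.2 to 26.5% in the others and the higher values in the WT kit. The share of mitochondrial genes was higher in members in 8 of 8 lobes, with 4.56 to 7.02% against 4.00 to 6.62%. The part of these differences in the results was not tested. The tissue label held: Rag1 and Rag2 together stood at 755 to 1179 CPM (UMIs of a gene per 1000000 UMIs outside ribosomal RNA genes) over the 8 thymic lobes and at 4.54 to 29.5 in the 16 other samples of the WT kit.

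Runx3 and Itgae carried the choice. Of the 745 members, 660 held a Runx3 UMI, 484 an Itgae UMI and only 42 an Nkg7 UMI, and 400 held both Runx3 and Itgae. Levels are given in CPM, from the sum over the cells of a class in a lobe. Runx3 stood between 566 and 888 in the members of the 8 lobes and between 42.2 and 56.2 in all other cells. Cd8a, which DP cells carry too, overlapped fully, with a range of 448 to 633 in members and 441 to 630 in other cells. At the threshold, the values changed step by step. Cells that met all other limits and held 1 marker UMI had Cd4 at 322, Ccr7 at 160 and Ms4a4b at 249, all over the pooled cells, while members with exactly 2 marker UMIs had Cd4 at 226, Ccr7 at 317 and Ms4a4b at 374. Members with 4 or more had Cd4 at 113, Ccr7 at 465 and Ms4a4b at 609. The 250 members with exactly 2 marker UMIs thus lay between the cells left out and the 339 members with 4 or more. Depth differed too, with a median of 1828, 3125.5, 3735.5, 3611 and 4612 UMIs per cell at 0, 1, 2, 3 and 4 or more marker UMIs. The part of depth in these steps was not tested.

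**Figure D1:**
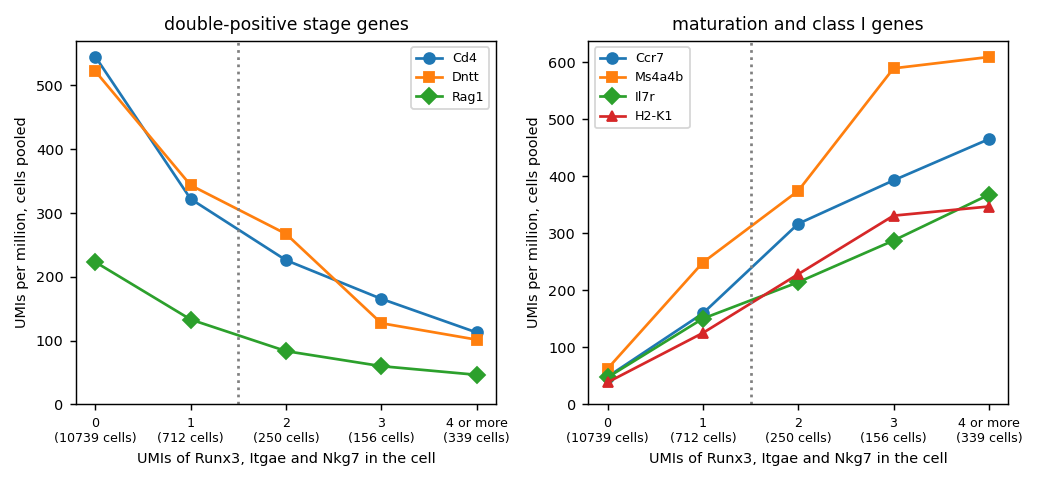
Level of 7 genes (CPM, cells pooled over 8 lobes) against the number of Runx3, Itgae and Nkg7 UMIs in the cell, for cells that met all other limits of the rule. The dotted line marks the rule. Cd4 went from 545 at 0 marker UMIs to 113 at 4 or more, and Ccr7 from 48.6 to 465. Rag1 was itself limited by the rule.

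The name CD8 lineage was set beside Cd4, which the rule did not use. The rule limits Rag1 and Rag2 and allows no Zbtb7b or Cd40lg, which are genes of DP and CD4 lineage cells. Low Cd4 in members is therefore not independent of the rule. Cd4, the MHC class II coreceptor, ranged over the lobes from 88.6 to 285 CPM in members, with a median of 139, and from 464 to 779 in all other cells, with a median of 670.1. The highest member lobe lay below the lowest lobe of the others, and 7.77% of all genes tested had lobes without overlap in 1 direction or the other. The log2 fold change of Cd4 was -2.05 ± 0.74 (SD over 8 lobes; edgeR quasi-likelihood test, adjusted p = 2.1e-23). No Cd4 UMI was found in 532 of 745 members, and 105 held 2 or more. A gate of 410 cells with at least 6 UMIs of the B cell genes Ebf1, Pax5, Cd79a and Cd79b held Cd4 at 349 over the pooled cells, and the members at 156. That gate also carried Rag1 at 519 and Cd8a at 313, against 913 and 509 in all other cells, and the source of this RNA was not tested.

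**Figure D2:**
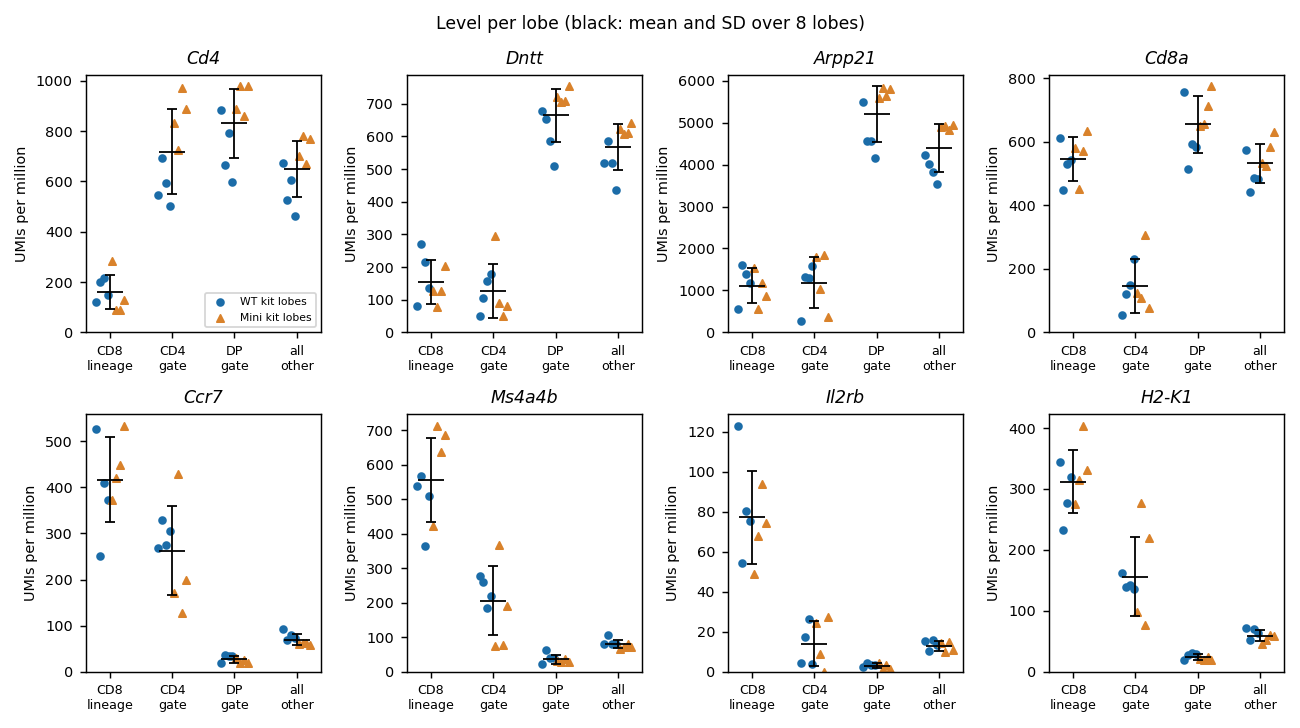
Level of 8 genes (CPM) by lobe in CD8 lineage cells, a CD4 gate, a DP gate and all other cells. Points are lobes and black bars the mean and SD over 8 lobes. Cd4 in the members ended at 285, below every lobe of the other cells, while Ccr7, Ms4a4b and H2-K1 lay above them in every lobe. Cd8a was part of the rule, and Cd4 was part of the CD4 and DP gates.

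Against all other cells of the same lobes, 1405 genes were higher in members, 10.9% of the 12846 tested, and 1416 were lower, 11%. The median log2 fold change over all genes was -0.08, and gene lists are read beside it. Of the genes called, 707 higher and 1080 lower genes had the same sign in all 8 lobes. The largest rise among genes of at least 20 CPM belonged to Adgrg5, an adhesion G protein-coupled receptor, with 41.0 to 159 in members and 3.88 to 6.75 in other cells. Its log2 fold change was 4.10 ± 0.51 (adjusted p = 8.7e-24). The next largest were Ccdc102a, Crtam, 1700062C10Rik, Kcnc1, Ctsw, Rflnb, Slc15a1, Neurl3 and Bend4, at 2.93 to 3.46. The largest falls were in P2rx1, Xrra1, Npas2, BC028471, Gm20488, Iftap, Nwd1, Dgkeos, Gm12709 and Slc7a11, at -2.78 to -2.47. Most of these were rare in members: P2rx1, an ATP-gated channel, stood at 3.44 over the pooled members against 22.6, with an SD of 2.65 over lobes, while Slc7a11, a cystine transporter, was at 60.6 against 315. Iftap lies on the minus strand at chr2:101560781-101649532 (mm10, GENCODE M21) and spans Rag1 and Rag2, which the rule limits, so its fall is not independent of the rule.

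Genes of T cell maturation and thymic exit were mostly higher in members. Of the 26 measured, 21 rose, 2 fell (the Krüppel-like factors Klf3 and Klf13) and 3 did not pass, with a median log2 fold change of 1.26. Of all genes tested 10.9% were higher and 11% lower. Ccr7, which guides cells to the medulla, stood at 251 to 534 in members with a median of 415, against 58.4 to 92.0 in other cells. The lobes did not overlap, and the log2 fold change was 2.47 ± 0.37 (adjusted p = 4.3e-31). S1pr1, the exit receptor, was at 54.9 to 149.5 in members against 15.5 to 21.0, with 2.40 ± 0.50 (adjusted p = 1.7e-20). Klf2, the factor that switches on S1pr1, rose by 2.03 ± 0.49. Il7r, the interleukin-7 receptor chain that DP cells lack, lay between 236 and 609 against 72.0 to 103, and rose by 1.76 ± 0.37 (adjusted p = 8.5e-25). Bcl2, a survival gene, rose by 1.66 ± 0.21. Ms4a4b, a membrane protein of mature T cells, gave the largest rise of the list, with 365 to 713 against 66.6 to 107 and a log2 fold change of 2.69 ± 0.38 (adjusted p = 5.2e-32). Itgb7, the partner chain of the CD103 integrin that the rule read through Itgae, rose by 2.51 ± 0.39. Each of these 7 genes was higher in members in 8 of 8 lobes, without overlap, and 7.77% of all genes tested had lobes without overlap. The rule limits Rag1 and Rag2, genes of the DP stage, in members only. The rise of maturation genes over all other cells is therefore not independent of the rule.

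Genes of the DP stage fell as a group. Of the 12 measured, 11 were lower in members and none was higher, with a median of -1.80. Cd4 is 1 of the 11. Dntt, the terminal transferase that adds bases at receptor gene joints, ranged from 77.8 to 270.3 in members against 435 to 639.7 in others, and its log2 fold change was -1.89 ± 0.68 (adjusted p = 2.2e-21). Arpp21, an abundant DP transcript, fell by 2.11 on the log2 scale (SD 0.71). The rule limits Rag1 and Rag2, which are of the same stage, so these genes moved beside genes that the rule used.

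Cytotoxic genes split. Of 27 listed genes 5 were used by the rule and 12 could be tested, and 5 of these rose: Crtam, Klrd1, Ctsw, Cd160 and Il2rb. Gzma, a granzyme, fell, and 6 did not pass. Il2rb, the interleukin-2 and interleukin-15 receptor beta chain, stood at 49.1 to 123 in members against 9.64 to 15.8, a log2 fold change of 2.52 ± 0.39 (adjusted p = 1.6e-19). Crtam, a receptor of activated CD8 cells, stood at 9.81 to 39.6 against 1.05 to 3.79, with 3.45 ± 0.84 (adjusted p = 1.9e-13). Ctsw, the protease cathepsin W of CD8 and NK cells, rose by 3.17 ± 0.47. Prf1, which encodes perforin, was at 5.85 over the pooled members and 2.25 over the others (1.28 ± 2.84, adjusted p = 0.076), and Gzmb had too few counts to be tested. NK cells share several of these genes, and their marker list took 0 to 16.4 CPM in members against 14.4 to 22.3 in other cells, with Klra4, Klra7, Klra8 and Klrg1 at 0 in members.

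MHC class I and interferon-stimulated genes were higher in members. Of the 11 class I genes measured, 8 rose and none fell, with a median of 1.35. Of the 16 interferon-stimulated genes, 11 rose and none fell, also with a median of 1.35. H2-K1, a classical class I heavy chain, stood at 232 to 404 in members against 45.9 to 71.4, with no overlap between lobes and a log2 fold change of 2.29 ± 0.22 (adjusted p = 3.7e-29). Over all genes tested 10.9% were higher in members and 7.77% had lobes without overlap. Nlrc5, the transactivator of class I genes, rose by 2.33 ± 0.41 (adjusted p = 4.3e-31), H2-D1 by 1.71 ± 0.33 and B2m, the shared light chain, by 1.42 ± 0.26. Tap1, the peptide transporter, rose by 0.82 ± 0.36 and H2-T23, a non-classical chain, by 0.68 ± 0.37. Irf7 rose by 1.99 ± 0.68, while Ifit3 and Isg15 were called on few counts, with SDs of 2.28 and 2.57 over lobes. H2 genes are near copies of each other, and the sources do not say how shared reads were assigned, so the split between single H2 genes is uncertain.

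The promoters of these genes were read from RefSeq (GRCm38.p6), as 250 bases before to 50 after the start, for letters that interferon regulatory factors can bind: TTTC and, after any 2 bases, TTTC again, or on the other strand GAAA, any 2 bases and GAAA. Of the 11 class I genes 9 had a promoter in the table, and 2 of the 9 held a match, B2m and H2-T23. Only this exact pattern was searched, so a promoter without a match may hold other letters that these factors bind. The promoters of H2-K1, H2-D1 and H2-Q7 each hold agtttcacttct, where TTCT stands in place of the later TTTC, and it was not counted. The 250 bases before each start are shown 5′ to 3′ on the gene's own strand with the match in capitals, because both genes rose in members. B2m lies on the plus strand at chr2:122147437-122147686 and H2-T23 on the minus strand at chr17:36032702-36032951. GENCODE M21 places H2-T23 at chr17:36029773-36032855, so by that annotation its match lies inside the gene.
B2m: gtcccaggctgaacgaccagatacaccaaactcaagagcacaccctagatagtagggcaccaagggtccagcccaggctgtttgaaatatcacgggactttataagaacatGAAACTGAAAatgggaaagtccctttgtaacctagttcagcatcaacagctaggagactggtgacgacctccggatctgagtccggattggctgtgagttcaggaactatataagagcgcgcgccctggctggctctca
H2-T23: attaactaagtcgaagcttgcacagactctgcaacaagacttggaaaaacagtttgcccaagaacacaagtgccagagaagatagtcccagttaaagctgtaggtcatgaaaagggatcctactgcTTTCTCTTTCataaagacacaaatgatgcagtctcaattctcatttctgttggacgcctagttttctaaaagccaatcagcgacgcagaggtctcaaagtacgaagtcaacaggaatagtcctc
A match was found in 3.99% of the 27025 promoters on file and in 3.93% of those of the tested genes. Among the genes higher in members 86 of 1089 did (7.90%), and among the lower genes 38 of 1069 (3.55%). The letters TGTGGT or TGCGGT, on either strand (ACCACA or ACCGCA), which Runx factors can bind, were in 25.0% of all promoters, 27.3% of those of the higher genes and 24.3% of those of the lower genes. These shares describe letters and were not tested.

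Receptors and mediators of 2 cytokine families differed between members and other cells. Of 24 genes for cytokine receptors, Jak kinases, Stat factors and Socs inhibitors, 13 rose and 5 fell, with a median of 0.40. Beside Il2rb and Il7r, Il21r rose by 1.15 ± 0.26, Ifngr2 by 0.89 ± 0.32, Stat4 by 0.84 ± 0.22 and Jak1 by 0.71 ± 0.14. Socs1, an inhibitor of cytokine signalling, fell by 0.82 on the log2 scale (SD 0.80), Ifngr1 by 0.68 (SD 0.41) and Stat5b by 0.43 (SD 0.15). In the TGF beta pathway, which induces Itgae in T cells, 5 of 12 genes rose and 2 fell. Smad7, the inhibitory Smad, stood at 101 to 216 in members against 25.6 to 36.5, a log2 fold change of 2.24 ± 0.34 (adjusted p = 8.2e-24). Smurf2, its ubiquitin ligase partner, rose by 1.46 ± 0.22, the receptor Tgfbr2 by 1.23 ± 0.14, and the repressors Skil and Ski by 1.01 ± 0.25 and 0.86 ± 0.20. Smad3 fell by 0.47 (SD 0.19) and the receptor Tgfbr1 by 0.32 (SD 0.33). The genes that rose include 4 known to dampen the pathway, namely Smad7, Smurf2, Skil and Ski.

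Among 20 regulators of lineage choice, 4 rose and 7 fell. Bach2, a repressor of effector genes, was at 1339 to 2289 in members against 512 to 799, and rose by 1.54 ± 0.20 (adjusted p = 4.0e-27). Runx1, the Runx factor of DP cells, ranged from 1032 to 1348 in members against 1678 to 2138, with a log2 fold change of -0.72 ± 0.19 (adjusted p = 6.7e-12). The chromatin organiser Satb1 fell by 0.75 (SD 0.25), Tcf7 by 0.65 (SD 0.17) and Bcl11b by 0.63 (SD 0.20), while Lef1 rose by 0.39 ± 0.13. Cbfb, the common partner of Runx factors, differed by 0.13 ± 0.12 and did not pass (adjusted p = 0.22). Of 9 CD4 lineage genes 4 fell, Cd4, Myb, Gata3 and Cd28, while Icos and Ctla4 rose. Gata3, the CD4 lineage and Th2 factor, stood at 38.0 to 103 in members against 123 to 153, at -0.96 ± 0.50 (adjusted p = 4.5e-09). The T cell receptor signalling list was even, with 7 of 22 genes higher, such as the kinase Prkcq (0.68 ± 0.13), and 7 lower, such as Themis (-1.05 ± 0.24), a DP signalling protein.

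**Figure D3:**
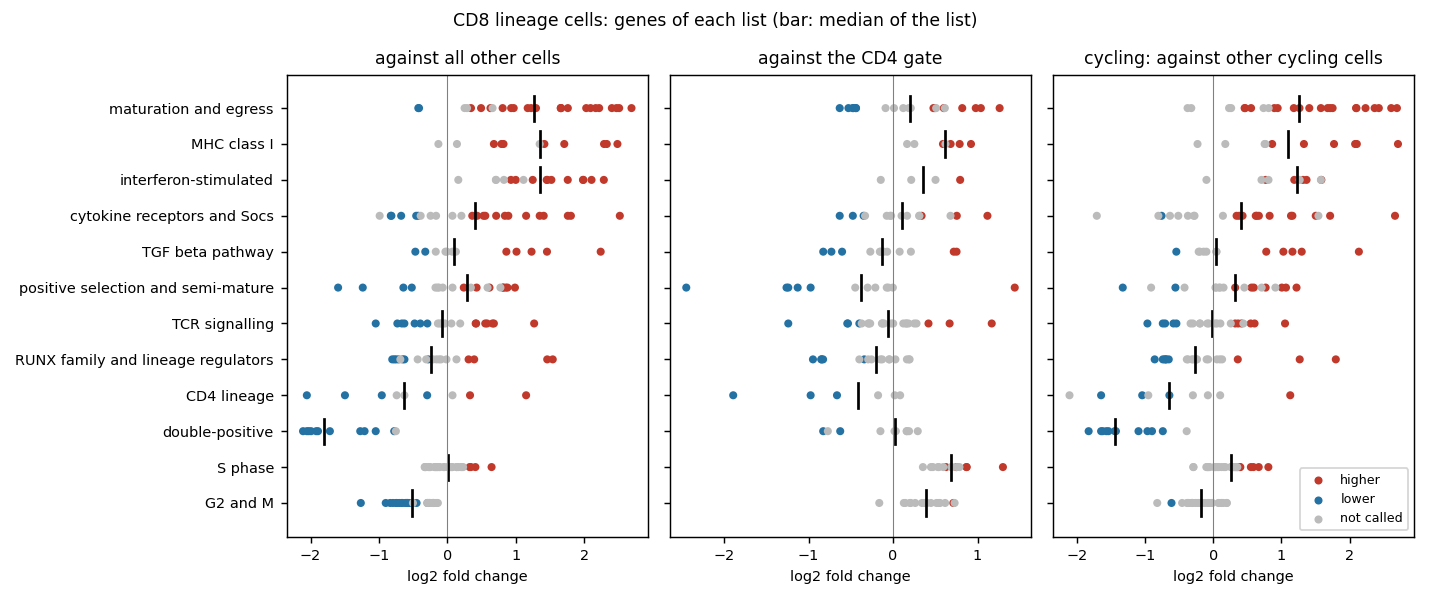
Log2 fold change of each tested gene of 12 lists, for CD8 lineage cells against all other cells, against the CD4 gate, and for cycling CD8 lineage cells against other cycling cells. Points are genes, coloured by the call (edgeR, adjusted p under 0.05), and bars are list medians. Maturation genes lay at a median of 1.26 against all other cells and 0.20 against the CD4 gate.

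The closest relatives of the members are CD4 single-positive cells, and these were gated as a mirror image: at least 2 UMIs of Zbtb7b and Cd40lg together, at least 1 of Cd4, none of the member markers, and the same other limits. The gate held 270 cells, 10 to 62 per lobe, with a median of 4037.5 UMIs per cell. Of 3886 genes tested, 209 (5.38%) were higher and 218 (5.61%) lower in CD8 lineage cells. Of 15 S phase genes 5 were higher (Hells, Mcm6, Pola1, Clspn and Atad2) and none lower, with a median of 0.69 and 2 to 8 higher over the alternatives. A list of 6 abundant transcripts kept as a technical sign (Cdk8, Lars2, Gphn, Cmss1, Gm19951 and Malat1) took 40347 to 205461 CPM over the member lobes and 41095 to 185997 over those of the gate. Of these Cmss1 (0.26 ± 0.15) and Gm19951 (0.26 ± 0.17) were higher and none lower, 0 to 3 were higher over the alternatives, and their part in the result was not tested. The largest difference was in Gm44174, a long non-coding RNA with 202 to 413 in members and 0 to 51.2 in the CD4 gate, where 2 lobes were at 0. Its log2 fold change was 4.08 ± 1.03 (adjusted p = 1.4e-09), and the lobes did not overlap, as for 1.75% of the genes tested. Gm44174 lies on the plus strand at chr6:71353035-71373284 (mm10, GENCODE M21), between Cd8b1 and Cd8a, and ends 142 bases before the annotated start of Cd8a. It is thus next to both coreceptor genes of the rule, which the CD4 gate did not require. Its lead over that gate is therefore not independent of the rule. It was also higher in members than in DP cells, by 1.93 ± 0.23. The part of its position in these differences was not tested.

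Other genes led by CD8 lineage cells over the CD4 gate were 1700062C10Rik, Atp8b4, Fam241a, Gria3, Cyth4, Sox5, Ahnak, Adam19 and Fgf13, with log2 fold changes of 1.99 to 3.98. Atp8b4, a lipid flippase, stood at 402 over the pooled members and 49.4 over the gate. The largest falls were in Chl1, Tmem64, Sytl2, Itm2a, Oxr1, B630019A10Rik, Trio, Sgms1, Gata3 and Stk39, at -3.70 to -1.82. Chl1, a neural adhesion molecule, lay at 9.89 to 72.0 in members and 242 to 799.5 in the CD4 gate, a log2 fold change of -3.70 ± 1.09 (adjusted p = 1.2e-10). Gata3 ranged from 38.0 to 103 in members against 123 to 563 in the CD4 gate, at -1.89 ± 0.87 (adjusted p = 1.7e-07). Tox, a factor that CD4 cells need, was lower by 0.98 (SD 0.34), with 1425 to 2511 in members and 2916 to 5467 in the CD4 gate. Its lobes did not overlap, as for 1.75% of the genes tested. Runx1 (-0.85 ± 0.32), Satb1 (-0.95 ± 0.28), Lef1 (-0.85 ± 0.20), Bach2 (-0.83 ± 0.16) and Ets1 completed the 5 of 16 regulators that were lower, with none higher.

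Several genes induced by T cell receptor signals were lower in CD8 lineage cells than in the CD4 gate. The gate required at least 2 UMIs of Zbtb7b and Cd40lg together, of which members held none. The part of this choice in the differences was not tested. Of 12 positive selection genes tested against the CD4 gate 5 fell, Itm2a, Nr4a1, Cd5, Nr4a3 and Tox, and Ikzf2 rose. Cd5, a surface inhibitor whose level follows the strength of self-recognition, had a log2 fold change of -1.24 ± 0.39 (adjusted p = 2.1e-08). Nr4a1, the immediate early gene Nur77, had -1.26 ± 0.39 (adjusted p = 1.5e-07), and Itm2a -2.45 ± 1.09 (adjusted p = 1.2e-07). Ikzf2, the factor Helios, had 1.44 ± 1.39 (adjusted p = 0.0002), and did not pass with DESeq2 (adjusted p = 0.11). Against all other cells, 8 of 20 genes of this list were higher, among them Cd69 (0.99 ± 0.50), Egr1 (0.62 ± 0.55) and Nr4a3 (0.43 ± 0.67), and 4 were lower, Cd24a, Tox2, Bcl2l11 and Ccr9, with a median of 0.29. Cd5 (-0.07 ± 0.16, adjusted p = 1) and Nr4a1 (-0.17 ± 0.20, adjusted p = 0.65) did not pass. Both comparisons use the same members, so their calls are not independent of each other.

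The maturation list was split between the lineages. Of 20 genes tested against the CD4 gate 7 were higher in CD8 lineage cells, among them Ms4a4b, Ms4a6b, Itgb7, Ccr7, Foxo1 and Emb, and 6 were lower, Gimap6, Cd2, Il7r, Bcl2, Gimap8 and Gimap4. Ms4a4b differed by 1.26 ± 0.75 (adjusted p = 1.2e-06). Il7r differed by -0.48 ± 0.45 (adjusted p = 0.011) and Bcl2 by -0.47 ± 0.49 (adjusted p = 0.0024). When the CD4 gate was matched to the members in UMIs per cell, which left 132 of its 270 cells, 85 genes were higher and 78 lower. Over the alternatives, between 1 and 8 maturation genes were higher and between 1 and 6 lower. Of 7 class I genes tested 4 were higher and none lower: H2-K1 by 0.92 ± 0.63, Nlrc5 by 0.79 ± 0.47, H2-D1 by 0.68 ± 0.58 and B2m by 0.59 ± 0.42. Over the alternatives 2 to 4 class I genes were higher, with 2 under DESeq2, and none lower. Of 4 interferon-stimulated genes tested 1 was higher (Ifi203) and none lower, with a median of 0.36 and 0 to 2 higher over the alternatives. That list took 519 to 1277 CPM over the lobes of the CD4 gate, 716 to 1467 in members and 341 to 433 in all other cells. Of 15 cytokine genes 3 were higher and 3 lower than in the CD4 gate, and of 12 TGF beta genes 2 and 3. Stat4 (1.12 ± 1.63), Il21r (0.75 ± 0.37), Smad7 (0.75 ± 0.72) and Smurf2 (0.72 ± 0.30) were among the higher genes. With the gate matched in depth 0 of 11 TGF beta genes tested were higher, and Smad7 also did not pass with DESeq2 or without WT 4 or Mini 1-B (adjusted p = 0.061 to 0.70 over these 4 alternatives). Ifngr2 (-0.63 ± 0.25), Stat5b (-0.35 ± 0.15), Tgfb1 (-0.83 ± 0.28), Tgfbr3 (-0.73 ± 0.26) and Skil (-0.60 ± 0.40) were lower, while Tgfbr2 (0.08 ± 0.17, adjusted p = 1) did not pass. Over the alternatives 1 to 4 cytokine genes were higher and 1 to 3 lower. For TGF beta genes these counts were 0 to 2 and 1 to 3. The B cell gene Ighm was also higher than in the CD4 gate, by 1.01 ± 0.93 (adjusted p = 0.017), with 84.3 over the pooled members and 40.3 over the gate. It did not pass with DESeq2 (0.93) or without WT 1 (0.76), WT 4 (0.92) or Mini 1-B (0.91), and was too low to be tested without WT 3, up to 10000 UMIs or at matched depth. It stood at 86.0 in all other cells, and its part in these results was not tested.

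Against a DP gate of 19123 cells (at least 2 Rag1 and Rag2 UMIs, Cd4 and Cd8 both present, no member marker), 1718 genes (15.6%) were higher and 1593 (14.4%) lower among 11028 tested. All 11 tested DP genes were lower, with a median of -2.0, and 22 of 26 maturation genes were higher, with a median of 1.75. The gate requires Rag1 and Rag2 UMIs, which the rule limits. The fall of DP genes and the rise of maturation genes were therefore not independent of this choice. Of 19 positive selection genes 14 were higher here, among them Cd69 (1.79 ± 0.60) and Egr1 (1.28 ± 0.52), with 3 lower. Il2rb (4.66 ± 0.82), Ccr7 (3.87 ± 0.71), Smad7 (3.86 ± 0.52) and H2-K1 (3.60 ± 0.42) were among the genes higher than in DP cells. Ccr9, the chemokine receptor of DP cells, was lower by 0.63 (SD 0.29). Dendritic cell genes moved with this comparison: all 5 tested (Ccr7, H2-Aa, H2-Eb1, H2-Ab1 and Cd74) were higher. The summed dendritic cell list, which includes Ccr7, ran from 311 to 658 in members, from 24.4 to 73.0 in the DP gate and from 124 to 224 in all other cells, while the defining genes Clec9a and Xcr1 were at 0 in members. Ccr7 alone took 408 of a pooled 504 in members, and of the 7 genes tested against all other cells only Ccr7 was higher and Siglech lower, with a median of -0.43. The part of such RNA in the result was not tested.

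Marker lists of other cell types were summed in the same way. A list of the double-negative and immature single-positive stages, which come before the DP stage, took 648 to 932 in members and 1281 to 1785 in the others. Of its 18 genes 1 was used by the rule and 15 could be tested. Dtx1 and Kit were higher and 4 were lower, Notch3, Myb, Trdc and Gfi1, with a median of -0.89. The part of such cells among the members was not tested. Gamma-delta T cell genes took 27.7 to 118 in members against 138 to 173 in the others, with 4 of 8 lower and none higher. The B cell list took 29.4 to 219 in members and 93.6 to 311 in the others, with 1 of 8 lower. The regulatory T cell list, of which Ikzf2 is the most abundant, took 1053 to 1347 in members against 572 to 705 in the others. Of its 6 genes tested 3 were higher, Izumo1r, Ikzf2 and Ctla4, and none lower, with the defining gene Foxp3 at 1.03 over the pooled members and 2.68 over the others. None of the macrophage, epithelial or erythroid genes tested passed. Between kits, the member effect against other cells differed for 3 of 12846 genes.

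Cycling was read from Mki67 and Top2a, a nuclear antigen and a topoisomerase of dividing cells. At matched depth, among the 196 members of 4000 to 6000 UMIs, 117 held neither, 28 held 1 UMI, 21 held 2 to 5, 4 held 6 to 9 and 26 held 10 or more. Of these 196 members, 30 (15.3%, exact interval 10.6 to 21.1%) held 6 or more. The share was 24.5% in other cells of that depth, 20.8% in the DP gate, 6.85% in the CD4 gate (5 of 73 cells) and 10.3% in the B cell gate (6 of 58). Over all depths 134 members held 6 or more, 221 held 2 or more, 106 held 1 and 418 held none.

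Shares by lobe were compared after each cell was thinned to 1000 UMIs, with 1 or more UMIs as cycling; this left out 6 members. In the 8 lobes the members' share ran from 14% to 42.4%, with a mean of 26.0% ± 10.7 (SD), against 29.5% ± 7.49 in other cells, 20.2% ± 10.2 in the CD4 gate and 30.4% ± 8.13 in the DP gate. The members' share was lower than that of other cells in 7 of 8 lobes, by 3.55 percentage points on average (SD 4.81; exact sign-flip permutation test, two-sided, p = 0.0781, adjusted over 3 pairs 0.0781). It was higher than that of the CD4 gate in 7 of 8 lobes, by 5.78 points (SD 6.41, exact p = 0.0312, adjusted p = 0.0781). No pair passed after adjustment over the 8 lobes. Without Mini 1-A the differences from other cells (-4.99 points) and from the DP gate (-6.03 points) passed (adjusted exact p = 0.0234 for both), as did that from the CD4 gate without Mini 1-B (7.09 points, adjusted exact p = 0.0469). With cells up to 10000 UMIs only, the difference was -0.60 points from other cells and -0.47 from the DP gate (adjusted exact p = 0.82 for both). The difference from other cells had the reversed sign under 2 further definitions. It was 6.01 points with 4 or more UMIs of the G2 and M list and 1.12 with 3 or more thinned UMIs (adjusted exact p = 0.117 and 0.785). The smallest p that 8 lobes allow is 0.00781, and a test over 4 mice could not pass 0.05. With 1 or more thinned UMIs the pooled share was 27.1% in the B cell gate and 27.2% in members. It was 17.2% (261 cells) and 25.0% with cells up to 10000 UMIs, and 6.30% and 10.3% with 3 or more thinned UMIs. With 2 or more UMIs at full depth, the limit that sets the cycling members below, it was 31.7% and 29.7%. The share at that limit was thus not lower in the B cell gate than in members. With 6 or more UMIs at full depth, a limit chosen after the data were seen, the members' mean was 17.2% ± 5.02. It was higher than in the CD4 gate by 6.19 points (adjusted exact p = 0.0352) and differed from the DP gate by -7.68 points (adjusted exact p = 0.0352), and the difference from other cells was -2.69 points (adjusted exact p = 0.141). The B cell gate held a pooled 23.2% at this limit, with a median of 4500.5 UMIs per cell against 4129 in members. Over the 8 lobes the members' share ran from 6.0% in Mini 2-B, with 3 such cells, to 22.9% in Mini 1-A.

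**Figure D4:**
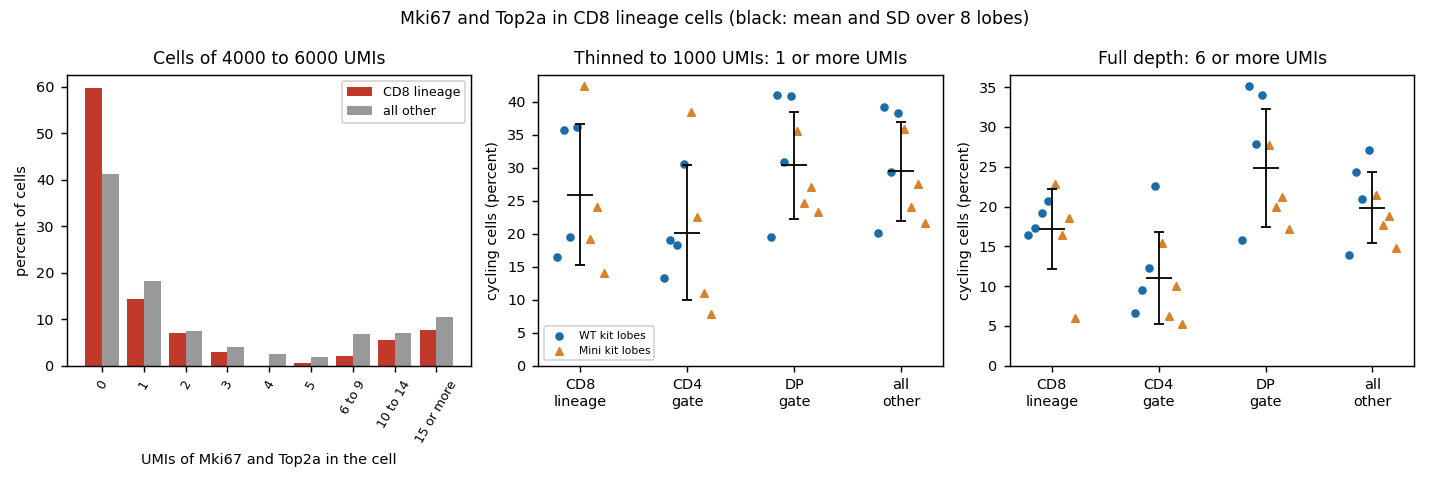
Left, share of cells (percent) by the number of Mki67 and Top2a UMIs, for cells of 4000 to 6000 UMIs; middle and right, share of cycling cells by lobe under both definitions. Points are lobes and black bars the mean and SD over 8 lobes. Members with 6 or more UMIs made 15.3% of the left panel, against 24.5% of the other cells.

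Cycling members (2 or more UMIs) differed from members with none in 508 genes of 3114 tested, 316 higher (10.1%) and 192 lower (6.17%). Of the 6 abundant transcripts kept as a technical sign, Cmss1 (0.54 ± 0.45) and Gm19951 (0.41 ± 0.60) were higher and Malat1 (-0.58 ± 0.18) lower, with a median of 0.39 and 0 to 5 higher over the alternatives, and their part in the result was not tested. Mki67 and Top2a defined the classes, so the rise of other cell cycle genes describes what was chosen: all 14 S phase and all 15 G2 and M genes tested were higher, with medians of 2.49 and 4.15. Kif15, a mitotic kinesin, stood at 183 to 868 in cycling members and 0 to 34.6 in the others, with 4 lobes at 0. Of 18 maturation genes tested 7 fell in cycling members and none rose, with a median of -0.48. Over the alternatives 0 to 9 fell, with 0 of 13 at matched depth, and the median stayed between -0.57 and -0.26. These were Ccr7 (-0.65 ± 0.53), Gimap8, Ms4a6b (-0.61 ± 0.27), Bcl2 (-0.56 ± 0.22), Gimap4 (-0.56 ± 0.45), Foxo1 (-0.53 ± 0.52) and Ms4a4b (-0.47 ± 0.27). Bach2 was at 864 to 1464 in cycling members against 1815 to 2846, without overlap, as for 3.4% of the genes tested, and differed by -0.91 ± 0.18 (adjusted p = 1.5e-07). The lipid phosphatase Inpp4b differed by -1.06 ± 0.47. Of 9 DP genes 4 were higher, among them Mns1, Arpp21 (1.21 ± 0.66) and Dntt (0.85 ± 0.91), and over the alternatives 0 to 4 were, with 0 of 4 at matched depth. Cd4 differed by 0.31 ± 0.74 (adjusted p = 0.25). Of the double-negative and immature single-positive list only Myb and Notch1 could be tested. Both were higher, with 0 to 2 higher over the alternatives. That list took 737 to 1539 CPM in cycling members and 523 to 808 in non-cycling members. It took 1294 to 1912 in other cycling cells, against which 1 of 13 genes tested was higher in cycling members and 4 were lower. Cycling members were also deeper, with a median of 6279 UMIs against 3499, and with non-cycling members matched in depth, of which 62 remained, 59 genes were higher and 16 lower.

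Compared with cycling cells outside the rule, of which there were 19140, cycling members showed higher maturation and lower DP genes. Of 10802 genes tested, 594 (5.5%) were higher and 580 (5.37%) lower, and the median over all genes was -0.10. Maturation genes were higher in 19 of 25 and lower in none, with a median of 1.26, and DP genes lower in 11 of 12, with a median of -1.44. The rule limits Rag1 and Rag2 in members only, and Rag1 stood at 60.1 over the pooled cycling members and 743 over the other cycling cells. Neither the fall of DP genes and Cd4 nor the rise of maturation genes was therefore independent of the rule. Cd4 ranged from 43.4 to 344 in cycling members against 413 to 618 in other cycling cells, at -1.65 ± 1.08 (adjusted p = 3.7e-15). Ccr7 ranged from 202 to 431 against 37.7 to 63.4, at 2.37 ± 0.48 (adjusted p = 3.1e-24), and neither gene's lobes overlapped, as for 3.99% of the genes tested. Il2rb (2.67 ± 0.71), Itgb7 (2.69 ± 0.78), Ms4a4b (2.61 ± 0.47), H2-K1 (2.11 ± 0.58) and Gm2682 (2.92 ± 0.65), a long non-coding RNA, were higher in 8 of 8 lobes. The G2 and M list was lower in 1 gene of 27, Ect2, a cytokinesis factor (-0.61 ± 0.70, adjusted p = 0.014), with a median of -0.18. The S phase list was higher in 8 of 31, among them Ccne1, the cyclin of S phase entry, and Mcm6, a helicase subunit (0.40 ± 0.43). Over the alternatives 1 to 10 S phase genes were higher and 0 to 5 G2 and M genes lower. Over all members against all other cells, 19 of 29 G2 and M genes were lower, with a median of -0.52, and 4 of 31 S phase genes were higher, near the 10.9% of all genes tested, with a median of 0.01 that changed sign between alternatives. Over the alternatives 8 to 21 of the G2 and M genes were lower and 0 to 9 of the S phase genes higher. The DP list stayed below and the maturation list above 0 under each alternative run for the cycling comparison.

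**Figure D5:**
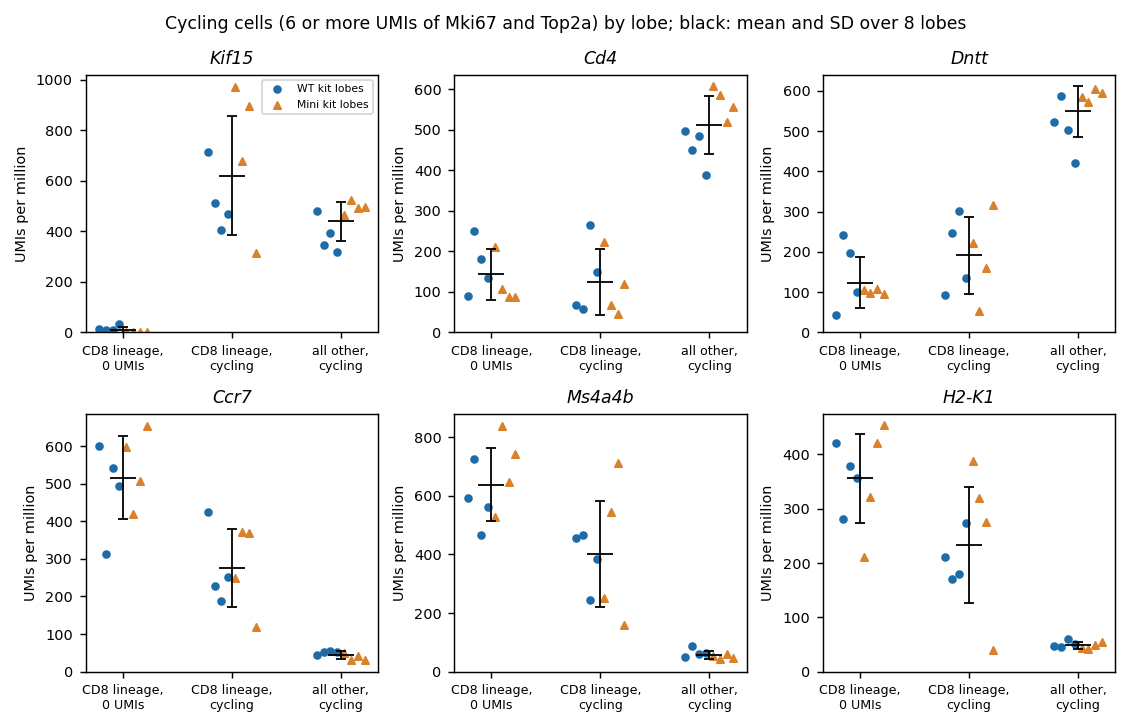
Level of 6 genes (CPM) by lobe in CD8 lineage cells without Mki67 and Top2a, in cycling CD8 lineage cells and in all other cycling cells, here with 6 or more UMIs as cycling. Points are lobes and black bars the mean and SD over 8 lobes. Mini 2-B rests on 3 cycling members. Cd4 and Dntt lay lower and Ccr7 and Ms4a4b higher in cycling members than in other cycling cells in all 8 lobes.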

How the data were processed

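Per the labels and the study's methods, thymic lobes of 2 mice per kit were digested, fixed and barcoded by split-pool wells (Parse WT and WT Mini kits), in 9 and 2 sublibraries. The authors aligned reads to mm10 and made a UMI count table per kit with the maker's pipeline, of which no version is stated. These counts were deposited without normalization, with sublibraries combined. Lobes were read from the sample names in the cell tables, and first-round wells picked the thymic cells of the WT kit. Of the cell tables, 16 further columns of values were not used. The 10x libraries are not analysed here.

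Cells of 500 to 25000 UMIs were kept. No doublet caller was run, while the study called doublets in both Parse libraries with scDblFinder and removed them before it typed cells. An upper limit of 10000 UMIs was tried as an alternative, which does not remove doublets of cells with few UMIs. The part of doublets in the results was not tested. Lobes held 4178 to 15077 cells before the limits. UMI counts were summed per lobe and class, 3 ribosomal RNA genes and the genes of the gates were left out, and low genes were removed with filterByExpr. edgeR 4.0.16 (R 4.3.3, TMM, quasi-likelihood test) was fitted on sums per mouse with mouse as a block, for each of 9 pairings of lobes into mice, the largest p was kept, and Benjamini-Hochberg adjusted values below 0.05 were called. Fold changes come from the 8-lobe fit, and their SD from log2 ratios per lobe with a prior count of 2. Shares of cycling cells used an exact sign-flip test over lobes (scipy 1.17.1). DESeq2 1.42.0 and the other settings are given in the closing section. Named genes were the 10 largest called changes per direction with at least 20 CPM in the higher class and the same direction in 8 lobes, members of gene lists, and genes of the rules. The members, gates and lists were chosen with earlier results of these data known. Of 57010 genes 52081 matched GENCODE M21 (91.4%), which gave positions. On simulated data for the comparison with all other cells (12846 genes), 62% of genes changed 2-fold and 73% of genes changed 4-fold were recovered. Some genes, and 1 comparison that rests on them, are not reported here. Intervals cover counting error only.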

Additional observations from a re-analysis of the deposited data

Results flagged for a closer look

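Il7r stood apart in 1 lobe: the members of Mini 2-A held 609 CPM (608.9), while the other Mini lobes lay at 275 to 330. The gap was larger than Dixon's limit for 4 samples, and chance flags about 1 in 20 groups.

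The effect of membership against all other cells differed between the kits for 3 genes (edgeR, interaction of kit and class, adjusted p = 0.0321 each). The difference given is the fitted one, Mini minus WT on the log2 scale. The values for each kit are means, and they do not subtract exactly to the fitted difference. Scart2 differed by -3.74, with 1.13 in the WT kit and -3.16 in the Mini kit. Arpp21 differed by -0.66, with -1.87 and -2.46. Ms4a4b differed by 0.54, with 2.45 and 2.94. For Arpp21 and Ms4a4b the direction was the same in both kits.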

How the results depend on the processing

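For the labels' replicate numbers, no paired analysis was possible because they name sublibraries, each holding cells of several lobes. Classes were instead paired within lobes or mice, in the main fits and in the test of cycling shares. Of the gene counts under an alternative, 157 stayed within 1.5 times the main count and 17 did not. Of the values of named genes, 1702 kept their direction and side of the threshold, 80 kept only the direction, and Ccr9 between cycling and non-cycling members changed sign, to 0.038 with matched depth. Limits of 3 or more marker UMIs, of 6 or more cycling UMIs and of 3 or more thinned UMIs, and the kit test over lobes, were chosen after seeing the data.

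With DESeq2 921 genes were lower against other cells, 82 higher and 91 lower against the CD4 gate, 162 higher and 42 lower in cycling against non-cycling members, and 304 lower against other cycling cells. Without a low-count filter the CD4 comparison gave 341 higher and the cycling one 551 higher. With depth matched these were 85 higher and 78 lower, and 59 higher and 16 lower; here fewer cells entered. Up to 10000 UMIs, cycling members had 185 higher and 93 lower. With 3 or more marker UMIs they had 118 higher and 47 lower. With lobes as replicates, 37 genes differed between kits.

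The lobe mean of the member share was 0.443% after thinning. Members minus other cells was 6.01 percentage points with the G2 and M list and 1.12 with 3 or more thinned UMIs, both of reversed sign. Up to 10000 UMIs it was -0.60, and members minus the DP gate -0.47. Members minus the CD4 gate was 10.8 points at full depth (2 or more), 5.12 up to 10000 UMIs and 6.19 at 6 or more, all past the threshold, and 7.79 with the G2 and M list (adjusted exact p = 0.176) and 3.52 with 3 or more thinned UMIs (adjusted exact p = 0.164), which did not pass. Members minus the DP gate was -7.68 at 6 or more and 0.17 with 3 or more thinned UMIs, of reversed sign. The cause of these differences was not tested.

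Leaving out 1 lobe at a time gave 1164 to 1343 genes higher and 1249 to 1410 lower against other cells, 151 to 210 and 160 to 212 against the CD4 gate, and 1472 to 1648 and 1336 to 1537 against the DP gate. Cycling against non-cycling members gave 233 to 324 higher and 112 to 162 lower, the fewest without WT 3. Cycling members against other cycling cells gave 459 to 565 and 475 to 581. The cycling differences ran from -4.99 to -2.65 points against other cells, 4.22 to 7.09 against the CD4 gate and -6.03 to -3.44 against the DP gate, and passed the threshold only without Mini 1-A (other cells, DP gate) and without Mini 1-B (CD4 gate).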
